A study of Mus musculus with 24 samples.

Results

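Liver lobules are organised along the path of blood from the portal triad to the central vein, and the hepatocytes in the last stretch before the central vein carry a gene programme of their own. Wnt ligands and R-spondin released by the endothelium of the central vein keep beta-catenin active in these cells, which clear ammonia by making glutamine and carry much of the cytochrome P450 activity of the organ. This account follows 9 genes of that programme, taken from the count table by their gene names: Glul, Slc1a2, Oat, Lect2, Cyp2e1, Cyp1a2, Rgn, Axin2 and Lgr5. They were 9 of the 55421 genes in the count table, and all 9 passed the filter on low counts that left 13583 genes for testing.

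RNA-seq was made from hepatocytes isolated from 24 male mice, 6 in each of 4 groups. Young mice, labelled as 6 months of age and C57BL/6N, and old mice, labelled as 24 months and C57BL/6J, had received either a normal diet (ND) or a high-fat diet with 60% of energy from fat (HFD) for 9 weeks. The labels name no transgene or other allele, and in all groups the liver was perfused with collagenase and the hepatocytes were enriched by low-speed spins and a density gradient. The substrain changes with age, so effects of either cannot be told apart, and "age" below stands for both. Libraries were labelled as batch 1 or batch 2, with 3 mice of each group in each batch except for old ND, which had 2 in batch 1 and 4 in batch 2. Library totals ran from 9200332 to 22185069 counts and were lowest in old HFD mice, with a median of 13018719.

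The hepatocyte markers fitted the label: 6 of the 7 listed were in the table, all 6 were detected in every mouse, and their summed level was 53051 to 160323 CPM (read counts scaled to a common library size, with TMM correction). Endothelial markers summed to 16.7 to 809 CPM, and Kupffer cell and macrophage markers to 1.34 to 1139 CPM, with both highest in old ND replicate 4. The 4 neutrophil markers summed to 0 to 46.4 CPM, with the highest sums in old ND replicate 4 (46.4 CPM) and old HFD replicate 2 (43.8 CPM). Of these markers, Ly6g was at 0 in every mouse. The RNA was pooled over all lobule zones, so a higher share of pericentral hepatocytes and more RNA of a gene per pericentral cell cannot be told apart.

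Levels between the 9 genes were compared as CPM per kilobase of exon. Cyp2e1 was the most abundant at 3148 CPM per kb over all mice, followed by Rgn (757), Oat (386), Glul (229), Cyp1a2 (173), Lect2 (143) and Slc1a2 (10.1), with Axin2 (1.12) and Lgr5 (0.904) at the bottom. The middle of this order depended on the group. In young ND mice Glul stood at 107 ± 13.4 (SD, n = 6) CPM per kb, below Cyp1a2 at 239 ± 30.6 and beside Lect2 at 113 ± 14.9. In old HFD mice Glul stood at 393 ± 278 and Cyp1a2 at 125 ± 29.9 CPM per kb, so that the order of the means was the opposite one. This rested mostly on batch 1, at 642 for Glul and 128 for Cyp1a2, while in batch 2 the means were 145 and 122 CPM per kb and old HFD replicate 5 had less Glul (128) than Cyp1a2 (172). Axin2 and Lgr5 did not differ beyond their spread. Between the lowest and the highest of the 24 mice, the CPM of Glul spanned 9.45-fold and that of Cyp2e1 2.86-fold, the widest and the narrowest ranges of the 9 genes.

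Beta-catenin acts on DNA through TCF and LEF factors, whose recognition core is CTTTGA, or TCAAAG on the other strand. RefSeq promoter windows of 300 bases (250 before and 50 from the start site, GRCm38.p6) were at hand for 7 of the 9 genes, with none for Lgr5 and Rgn. The core was found in 4 of the 7 windows, against 16% of 32851 mouse windows. The windows below belong to the genes on which the diet and age results turn, in the 5′ to 3′ direction of the gene, with each TCF core in capitals. They are Glul, chr1:153899679-153899978, plus strand; Slc1a2, chr2:102706188-102706487, plus strand, around a start site inside the annotated gene; Lect2, chr13:56548489-56548788, minus strand; and Cyp1a2, chr9:57683606-57683905, minus strand.
Glul: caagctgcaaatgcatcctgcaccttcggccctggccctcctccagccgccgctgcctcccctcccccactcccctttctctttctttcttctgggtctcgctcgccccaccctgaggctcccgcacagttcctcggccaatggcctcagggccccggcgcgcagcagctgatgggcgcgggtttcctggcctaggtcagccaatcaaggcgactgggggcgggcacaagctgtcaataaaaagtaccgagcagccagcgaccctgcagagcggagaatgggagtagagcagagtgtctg
Slc1a2: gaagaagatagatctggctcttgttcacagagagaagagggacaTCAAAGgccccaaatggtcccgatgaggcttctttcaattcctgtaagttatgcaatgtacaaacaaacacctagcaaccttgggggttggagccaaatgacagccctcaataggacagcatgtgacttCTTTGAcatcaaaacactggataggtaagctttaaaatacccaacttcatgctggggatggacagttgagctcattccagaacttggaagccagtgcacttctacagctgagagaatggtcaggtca
Lect2: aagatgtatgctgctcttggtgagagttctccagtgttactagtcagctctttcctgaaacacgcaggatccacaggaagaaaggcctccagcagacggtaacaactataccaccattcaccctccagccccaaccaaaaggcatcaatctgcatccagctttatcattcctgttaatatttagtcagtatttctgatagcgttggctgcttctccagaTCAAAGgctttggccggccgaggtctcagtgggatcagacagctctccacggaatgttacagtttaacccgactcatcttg
Cyp1a2: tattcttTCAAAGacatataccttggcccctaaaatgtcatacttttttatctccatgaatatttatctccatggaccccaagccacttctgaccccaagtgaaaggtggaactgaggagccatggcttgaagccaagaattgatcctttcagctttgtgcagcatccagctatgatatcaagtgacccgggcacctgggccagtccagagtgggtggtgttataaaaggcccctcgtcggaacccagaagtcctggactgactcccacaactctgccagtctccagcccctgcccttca
The Slc1a2 window held the core at -206 and -77 from the start site, the Lect2 window at -31, the Cyp1a2 window at -243 and the Cyp2e1 window, not shown, at -135. The Glul, Oat and Axin2 windows held none of these letters. The core of the aryl hydrocarbon receptor, the xenobiotic sensor that induces Cyp1a2, is GCGTG or CACGC on the other strand and was found only in the Lect2 window of the 7, at -190, against 32.4% of all windows. A match describes letters in a window and does not show that a factor binds there.

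High-fat feeding raised 3 of the 9 genes in young mice, Glul, Slc1a2 and Lect2, and 1 of the 9 in old mice, Lect2; it lowered none at an adjusted p under 0.05. The background of calls in the higher direction was 1.91% of the 13583 tested genes in young mice and 1.37% in old mice. The median log2 fold change of the 9 genes was 0.40 in young mice, beside 0.01 for all tested genes, and 0.64 in old mice, beside -0.01 for all. The 3 genes called in young mice were also the 3 whose groups did not overlap, with every HFD mouse above every ND mouse, a pattern shown in the higher direction by 1.77% of tested genes. In old mice only Lect2 was separated in this way, against 0.471% of tested genes. These calls came from edgeR's quasi-likelihood test over all 24 mice with batch as a covariate. Median marker sums of other cells also differed between the diets in young mice, with ranges that overlapped. The 9 endothelial markers were at 72.4 CPM on ND and 150 CPM on HFD. The 8 Kupffer cell and macrophage markers were at 22.9 and 92.4 CPM, and central vein endothelial markers at 2.68 and 7.37 CPM. Stellate cell and fibroblast markers were at 30.7 and 58.1 CPM, and T and NK cell markers at 1.24 and 0.872 CPM. In old mice the median sums on ND and HFD were 124176 and 86533 CPM for hepatocyte, 1.87 and 6.45 CPM for neutrophil and 108 and 72.5 CPM for stellate cell and fibroblast markers. Endothelial markers in old mice were at 164 and 117 CPM, and Kupffer cell and macrophage markers at 88.8 and 99.96 CPM. Central vein endothelial markers were at 5.36 and 5.39 CPM. Their part in the results was not tested.

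**Figure D1:**
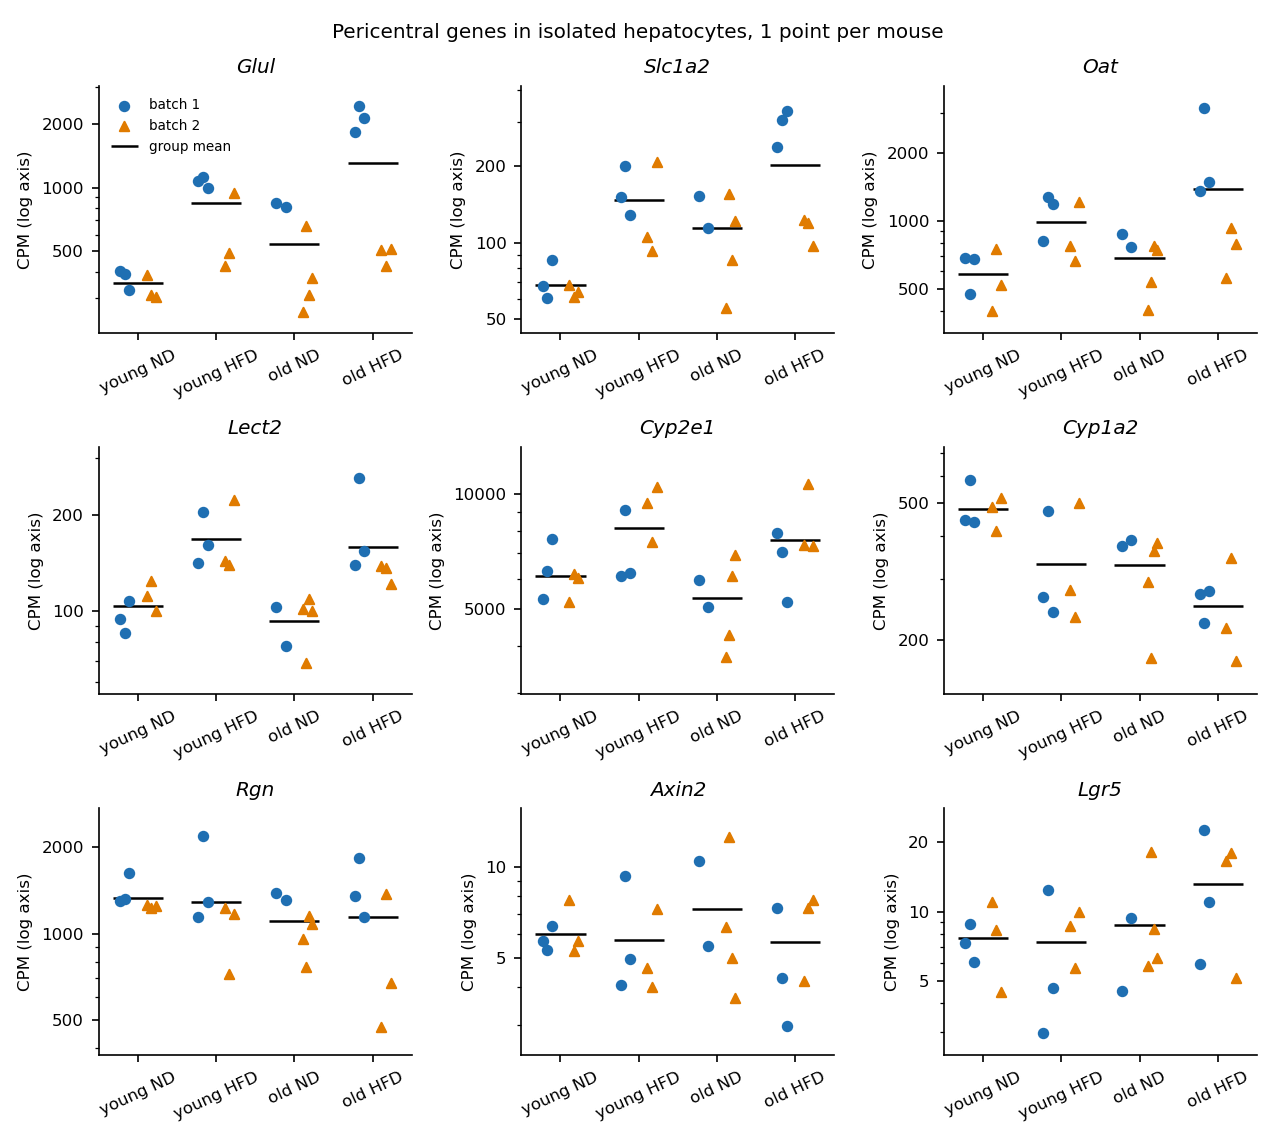
CPM of each gene in each of the 24 mice (log axis), by group, with circles for batch 1, triangles for batch 2 and a line at the mean of the 6 mice. Glul in old HFD mice falls into batch 1 mice at 1837 to 2427 CPM and batch 2 mice at 426 to 513 CPM, whereas all 6 old HFD mice lie below all 6 young ND mice for Cyp1a2.

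Glul encodes glutamine synthetase, which joins ammonia to glutamate and is restricted to the hepatocytes next to the central vein (GRCm38 chr1:153899944-153909723, plus strand). Its level was 304 to 405 CPM (median 357) in young ND mice and 427 to 1124 CPM (median 972) in young HFD mice. In old mice it was 257 to 845 CPM (median 517) on ND and 426 to 2427 CPM (median 1175) on HFD. The young groups did not overlap, while the old groups did. HFD raised Glul by a log2 fold change of 1.14 (SE 0.28, adjusted p = 0.0267) in young mice, or 2.21-fold. In old mice the difference was 0.92 (SE 0.29, adjusted p = 0.0697) and did not pass the test. The call in young mice was lost when young ND replicate 1, 2 or 3 or young HFD replicate 6 was left out (adjusted p up to 0.0864), without a batch term (0.126) and with the replicate number as a block (0.0671). The value in old mice passed without old ND replicate 4 (log2 fold change 1.13, adjusted p = 0.0331) or old HFD replicate 5 (1.11, adjusted p = 0.0284), and with all mice in DESeq2 (adjusted p = 0.0166).

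Slc1a2 encodes the glutamate transporter GLT-1, which brings the substrate of glutamine synthetase into the cell (chr2:102658659-102790784, plus strand). It was at 60.6 to 86.0 CPM (median 66.0) in young ND, 93.2 to 208 CPM (median 140) in young HFD, 55.2 to 156 CPM (median 118) in old ND and 97.3 to 332 CPM (median 181) in old HFD mice. Every young HFD mouse was above every young ND mouse, and the old groups overlapped. The log2 fold change with HFD was 1.11 (SE 0.25, adjusted p = 0.0177) in young mice and 0.65 (SE 0.25, adjusted p = 0.137) in old mice. The call in young mice was lost without young ND replicate 2 or young HFD replicate 6, without a batch term (adjusted p = 0.0515) and in limma without a filter (0.0871).

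Oat encodes ornithine aminotransferase, the mitochondrial enzyme that turns ornithine into a precursor of glutamate and proline (chr7:132557478-132576398, minus strand). Its levels were 400 to 749 CPM (median 601) in young ND, 665 to 1277 CPM (median 1001) in young HFD, 404 to 873 CPM (median 758) in old ND and 559 to 3163 CPM (median 1146) in old HFD mice. The groups overlapped at both ages. The HFD differences of 0.74 (SE 0.26, adjusted p = 0.102) in young and 0.83 (SE 0.27, adjusted p = 0.0785) in old mice did not pass the test. Oat passed in young mice without old HFD replicate 2 (adjusted p = 0.0318) and in old mice without old HFD replicate 4 (adjusted p = 0.0414), and with all mice in DESeq2 at both ages (adjusted p = 0.0370 and 0.0206).

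Lect2 encodes a secreted protein made by hepatocytes and known as a target of beta-catenin (chr13:56542464-56548502, minus strand). It was at 85.3 to 124 CPM (median 104) in young ND and 139 to 223 CPM (median 152) in young HFD mice, and at 69.0 to 109 CPM (median 101) in old ND and 121 to 260 CPM (median 139) in old HFD mice. At both ages the HFD mice were all above the ND mice. The log2 fold change was 0.70 (SE 0.17, adjusted p = 0.0274) in young and 0.75 (SE 0.17, adjusted p = 0.0232) in old mice. The call in young mice was lost without young ND replicate 1, 2 or 3 or young HFD replicate 2 or 6, and in limma without a filter (adjusted p = 0.0925). The call in old mice was lost without old ND replicate 1 or 2, when only the old groups were fitted (adjusted p = 0.255) and in limma without a filter (0.0748).

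The other 5 genes gave no call for diet at either age in the edgeR fit. Cyp2e1, the P450 that oxidises ethanol and acetone (chr7:140763739-140774987, plus strand), was at 5214 to 7626 CPM (median 6106) in young ND and 6109 to 10461 CPM (median 8294) in young HFD mice. In old mice it was at 3728 to 6918 CPM (median 5506) on ND and 5216 to 10665 CPM (median 7341) on HFD. Its groups overlapped at both ages, and the HFD differences were 0.40 (SE 0.18, adjusted p = 0.196) in young and 0.52 (SE 0.18, adjusted p = 0.0990) in old mice, where it passed without old HFD replicate 3 (adjusted p = 0.0473) and in DESeq2 (adjusted p = 0.0289). Cyp1a2 in young HFD mice was at 232 to 500 CPM (median 273), and its difference passed in young mice only without the count filter (adjusted p = 0.0348). Cyp1a2, Rgn, Axin2 and Lgr5 also had overlapping diet groups, with HFD differences from -0.53 (Cyp1a2) to -0.05 (Lgr5) in young and from -0.41 (Cyp1a2) to 0.64 (Lgr5) in old mice.

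**Figure D2:**
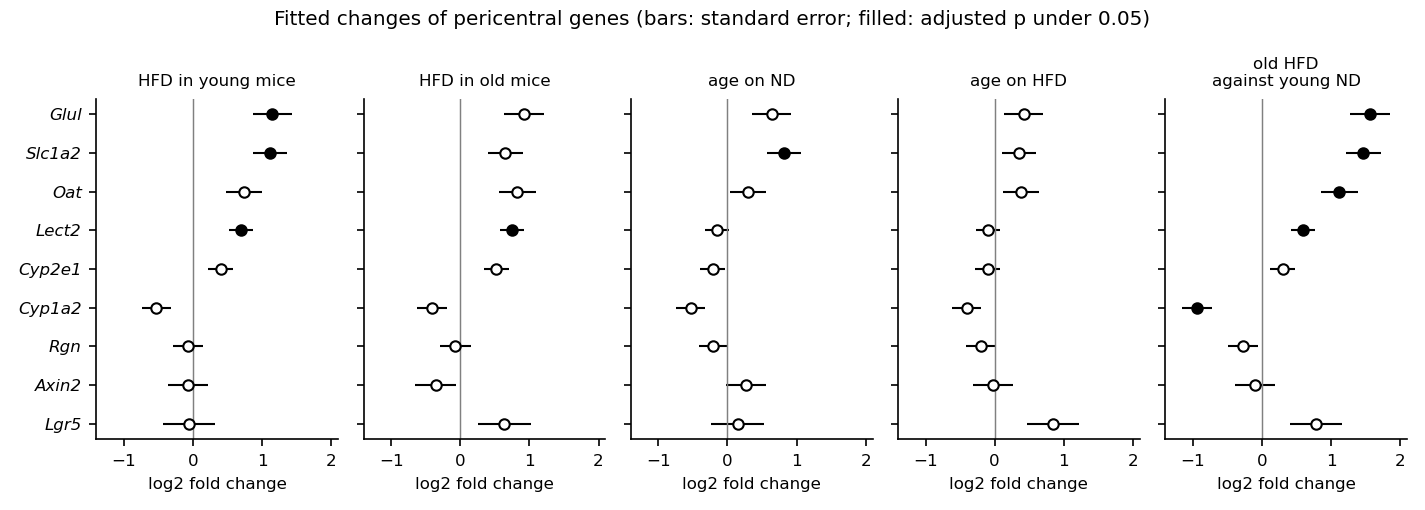
Fitted log2 fold change of each gene (x axis) in each of 5 comparisons, with the standard error as a bar and a filled point where the adjusted p was under 0.05. Glul, Slc1a2 and Lect2 are filled for HFD in young mice, Lect2 for HFD in old mice and Slc1a2 for age on ND, and 5 genes are filled for old HFD against young ND.

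Whether the response to diet differed between ages was tested by the interaction of age and diet. None of the 9 genes passed, with 0% of the 13583 tested genes called by edgeR, 1247 genes at an unadjusted p under 0.05 and none of the 9 among them. DESeq2 called 7 genes, none of them among the 9. The interaction was -0.22 (SE 0.39, adjusted p = 0.894) for Glul, -0.46 (SE 0.35, adjusted p = 0.700) for Slc1a2 and 0.05 (SE 0.24, adjusted p = 0.965) for Lect2 on the log2 scale. A difference between ages in the response of Glul and Slc1a2 was therefore not shown by the calls in young mice alone.

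The values within each batch set Glul, Slc1a2 and Oat apart in old mice. In batch 1 the old HFD mice had 1837, 2132 and 2427 CPM of Glul, beside 810 and 845 CPM in old ND mice. In batch 2 the old HFD mice had 426, 507 and 513 CPM, beside 257 to 661 CPM in old ND mice. The batch 1 groups were apart and the batch 2 groups overlapped. The HFD effect in old mice was 1.32 in batch 1 and 0.29 in batch 2 for Glul, 1.08 and 0.14 for Slc1a2, and 1.23 and 0.32 for Oat, all as log2 fold changes. In young mice the corresponding values were 1.5 and 0.92 for Glul and 1.17 and 1.10 for Slc1a2. For Lect2 the effect was 0.81 and 0.62 in young and 0.98 and 0.49 in old mice.

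The difference between the batches was itself fitted, a test chosen after the data were seen. For the HFD effect in old mice it was 1.10 (SE 0.42, unadjusted p = 0.0164, adjusted p = 0.835) for Glul and 1.01 (unadjusted p = 0.0354) for Slc1a2 on the log2 scale in edgeR. For Oat it was 0.98 (unadjusted p = 0.0569). For the age effect on HFD it was 1.37 (SE 0.40, unadjusted p = 0.00281, adjusted p = 0.991) for Glul. None of these passed after adjustment over all genes: edgeR called 0% of tested genes for each of the HFD effect in young mice, the HFD effect in old mice and the age effect on HFD, with 292, 740 and 480 genes at an unadjusted p under 0.05. The summed endothelial markers were also split by batch in old HFD mice, at 29.3 to 78.9 CPM in batch 1 and 155 to 649 CPM in batch 2, with all 9 markers detected in each mouse. The same split was present in the other groups. Young ND mice had 16.7 to 37.4 CPM in batch 1 and 107 to 155 CPM in batch 2. Their Glul averaged 375 and 334 CPM. Young HFD mice had 45.9 to 127 and 172 to 352 CPM of endothelial markers, and their Glul averaged 1066 and 621 CPM. Old ND mice had 48.4 to 80.0 and 160 to 809 CPM of endothelial markers, and their Glul averaged 828 and 401 CPM. Markers of central vein endothelium, the source of Wnt2, Wnt9b and Rspo3, in old HFD mice summed to 2.66 to 4.99 CPM in batch 1 and 5.80 to 38.1 CPM in batch 2. Kupffer cell and macrophage markers summed to 59.5 to 118 CPM in batch 1 and 81.6 to 586 CPM in batch 2, with overlap, and neutrophil markers to 4.21 to 43.8 CPM in batch 1 and 0.644 to 6.71 CPM in batch 2. Hepatocyte markers in old HFD mice summed to 89495 to 131119 CPM in batch 1 and 79155 to 83571 CPM in batch 2, without overlap. They were also higher in batch 1 without overlap in young ND mice, at 127063 to 144333 and 89817 to 118379 CPM. The same held in young HFD mice, at 117277 to 127902 and 67833 to 103593 CPM, while the batches of old ND mice overlapped. The part of these signals in the Glul values was not tested.

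**Figure D3:**
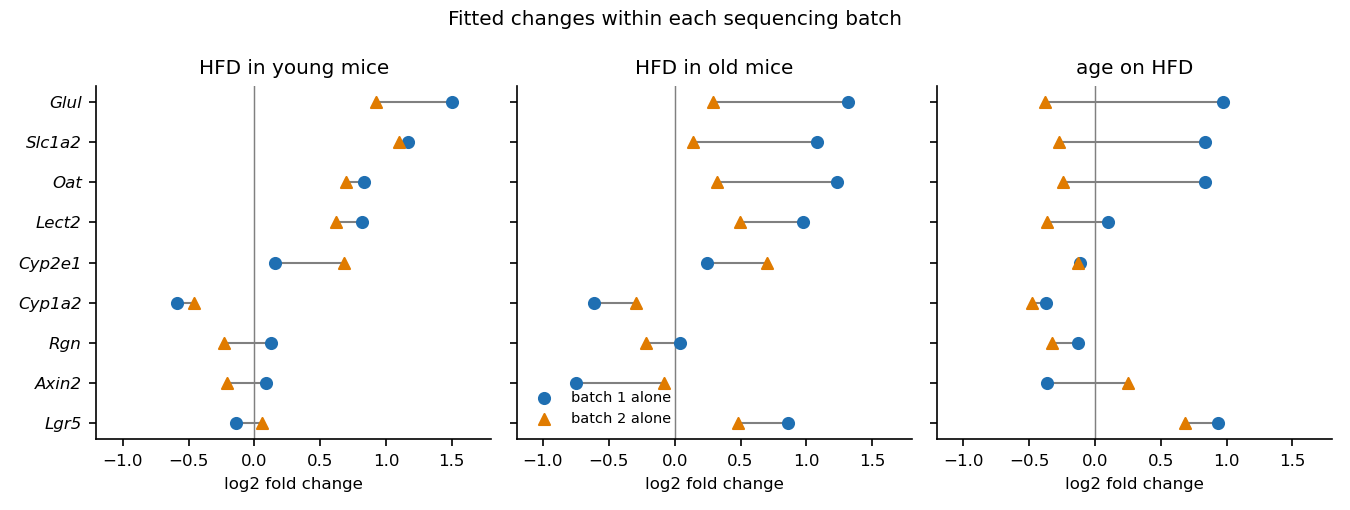
Log2 fold change of each gene fitted on batch 1 alone (circles) and on batch 2 alone (triangles), for HFD in young mice, HFD in old mice and age on HFD. The batches lie close together for Slc1a2 in young mice (1.17 and 1.10), and on opposite sides of 0 for Glul under age on HFD (0.97 and -0.38).

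On ND, age raised 1 of the 9 genes, Slc1a2, where 8.5% of all tested genes were called in either direction, 7.26% higher and 1.24% lower, so 1 gene of 9 is near this background. Its log2 fold change was 0.82 (SE 0.25, adjusted p = 0.0409), with 4 old ND mice above all young ND mice and 1 below them. Markers of other cells differed as well between old and young ND mice, with respective median sums of 164 and 72.4 CPM for endothelial, 88.8 and 22.9 CPM for Kupffer cell and macrophage and 108 and 30.7 CPM for stellate cell and fibroblast markers. Their part in the Slc1a2 difference was not tested. The Slc1a2 call was lost without any 1 of the 6 young ND mice, without old ND replicate 1, 4 or 6, without a batch term (adjusted p = 0.133), with the replicate number as a block (0.0976) and in limma on log2(FPKM + 1) (0.132). Cyp1a2, the P450 that metabolises caffeine and aromatic amines (chr9:57676937-57683703, minus strand), was at 414 to 583 CPM (median 467) in young ND and 177 to 390 CPM (median 369) in old ND mice. All 6 old mice were below every young mouse, as in 1.72% of tested genes in the lower direction, and the lowest was old ND replicate 4, the mouse with the highest endothelial and macrophage marker sums. However, the fitted difference of -0.53 (SE 0.21, adjusted p = 0.127) did not pass. Glul differed by 0.64 (SE 0.28, adjusted p = 0.168), with 1.16 in batch 1 and 0.25 in batch 2.

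On HFD, age called none of the 9 genes, beside 2.24% of all tested genes. At an unadjusted p under 0.05 edgeR had 2848 of the 13583 tested genes and 1 of the 9, Lgr5, at 0.84 (SE 0.37, adjusted p = 0.202). DESeq2 and limma likewise called none of the 9. Glul, Oat and Slc1a2 were higher in old than in young HFD mice in batch 1 (0.97, 0.84 and 0.83 as log2 fold changes) and lower in batch 2 (-0.38, -0.24 and -0.27).

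The contrast that combines age and diet, old HFD against young ND, held 5 of the 9 genes past the threshold. Glul (1.56, SE 0.29, adjusted p = 0.000732), Slc1a2 (1.47, SE 0.25, adjusted p = 0.000435), Oat (1.12, SE 0.27, adjusted p = 0.00390) and Lect2 (0.60, SE 0.17, adjusted p = 0.0122) were higher, in a contrast where 17.3% of all tested genes were called higher. Cyp1a2 was lower (-0.94, SE 0.21, adjusted p = 0.00285), where 12.9% were called lower. Glul and Slc1a2 did not overlap between these groups, as in 2.99% of tested genes in the higher direction, and Cyp1a2 did not overlap in the lower one, as in 4.27%. Cyp1a2 was at 174 to 346 CPM (median 247) in old HFD mice, all below the lowest young ND mouse. Within batches Cyp1a2 differed by -0.96 and -0.94, whereas Glul differed by 2.47 and 0.54 and Slc1a2 by 2.00 and 0.82. Oat differed by 1.67 and 0.46 and Lect2 by 0.91 and 0.25. Each of the 5 calls held whichever of the 24 mice was left out. This contrast shares its mice with the others and is not a separate measurement. Between young ND and old HFD mice the median marker sums were 22.9 and 99.96 CPM for Kupffer cells and macrophages, 30.7 and 72.5 CPM for stellate cells and fibroblasts, 1.24 and 4.10 CPM for T and NK cells, and 122721 and 86533 CPM for hepatocytes, and their part in these differences was not tested.

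Rgn encodes regucalcin, a calcium-binding lactonase that works in ascorbate synthesis (chrX:20549787-20562089, plus strand). It was at 1223 to 1623 CPM (median 1275) in young ND, 722 to 2185 CPM (median 1201) in young HFD, 763 to 1387 CPM (median 1114) in old ND and 474 to 1825 CPM (median 1244) in old HFD mice. The groups overlapped throughout, and its fitted differences lay between -0.27 and -0.07 in the 5 pairwise comparisons. Of 4 other genes of ascorbate synthesis, 1 fell with HFD in young mice: Ugdh, which makes the glucuronate precursor, at -0.68 (SE 0.18, adjusted p = 0.0377).

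Axin2 and Lgr5 report on the Wnt signal itself, Axin2 as a feedback scaffold of beta-catenin destruction (chr11:108920349-108950783, plus strand) and Lgr5 as a receptor for R-spondins (chr10:115450311-115587780, minus strand). Axin2 was at 5.27 to 7.78 CPM (median 5.67) in young ND, 4.0 to 9.38 CPM (median 4.80) in young HFD, 3.67 to 12.6 CPM (median 5.92) in old ND and 2.98 to 7.77 CPM (median 5.80) in old HFD mice. Lgr5 was at 4.49 to 11 CPM (median 7.82) in young ND, 2.99 to 12.4 CPM (median 7.19) in young HFD, 4.52 to 18.2 CPM (median 7.37) in old ND and 5.18 to 22.6 CPM (median 13.8) in old HFD mice. Neither gene separated any pair of groups. With standard errors of 0.29 for Axin2 and 0.37 for Lgr5 on the log2 scale in young mice, their HFD differences of -0.07 and -0.05 were less precise than that of Lect2, whose standard error was 0.17. Counts per mouse were 37 to 166 for Axin2 and 52 to 294 for Lgr5.

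Under diet or age alone, calls among the other genes of the Wnt pathway fell only on receptors, surface regulators, transducers and members of the destruction complex. Of 5 tested ligands and R-spondins, 6 feedback targets and 3 TCF and LEF factors, none passed in any of the 4 comparisons of diet or age. The median log2 fold changes of the ligands and R-spondins were 0.85 and 0.61 with HFD in young and old mice and 1.06 with age on ND, and those of the feedback targets 0.57, 0.18 and 0.64. Those of the TCF and LEF factors were 0.09, -0.42 and 0.38. For receptors and surface regulators they were -0.11, -0.12 and -0.08, and for transducers and the destruction complex -0.09, -0.18 and -0.13. Among 11 receptors and surface regulators, Fzd7 fell with HFD in young mice (-0.78, SE 0.20, adjusted p = 0.0358) and Fzd8 rose with HFD in old mice (0.82, SE 0.21, adjusted p = 0.0353). Both encode Frizzled receptors. Among 13 transducers and members of the destruction complex, 3 fell with HFD in young mice and 1 in old mice, in comparisons where 1.59% and 1.64% of all tested genes were called lower. Dvl1, the Dishevelled scaffold, fell at both ages (-0.39 and -0.45, adjusted p = 0.0201 and 0.0114), and Axin1, a paralog of Axin2, fell in young mice (-0.49, adjusted p = 0.0195). Gsk3b, a kinase of that complex, fell with HFD in young mice (-0.38, adjusted p = 0.0481) and was lower with age on ND (-0.36, adjusted p = 0.0381). Of 6 secreted Wnt inhibitors 1 had enough counts to be tested and did not pass. In old HFD against young ND mice, Wnt2 (2.12, adjusted p = 0.00377), Rspo3 (1.91, adjusted p = 0.00588) and the feedback target Nkd1 (1.82, adjusted p = 0.00655) were higher, as were Tnfrsf19 and Tcf7l2. In the same contrast 4 of 11 receptors and surface regulators (Fzd7, Lrp5, Fzd5 and Lrp6) and 4 of 13 transducers (Gsk3b, Axin1, Gsk3a and Dvl1) were lower and none was higher, where 12.9% of all tested genes were called lower and 17.3% higher, with Fzd7 at -0.93 (adjusted p = 0.00236) and Gsk3b at -0.56 (adjusted p = 0.000894). Wnt2 and Rspo3 are also in the marker list of central vein endothelium given above, and averaged 2.94 ± 3.15 and 4.01 ± 4.11 CPM (SD, n = 6) in old HFD mice. In young ND mice they averaged 0.669 ± 0.586 and 0.978 ± 0.664 CPM.

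Genes that work beside Glul, Slc1a2 and Oat in glutamine, glutamate and ornithine handling were tested for 17 of 22 listed symbols. None passed for HFD in young mice, and 2 rose with HFD in old mice: Gpt, alanine aminotransferase (0.57, SE 0.15, adjusted p = 0.0345), and Prodh2, a proline-hydroxyproline dehydrogenase (0.60, SE 0.14, adjusted p = 0.0231), where 1.37% of all tested genes were called higher. Slc1a5, a glutamine carrier, was higher with age on HFD (1.74, SE 0.46, adjusted p = 0.0460) at 2.57 ± 1.68 against 0.739 ± 0.453 CPM. Beside Cyp1a2, 12 genes of the aryl hydrocarbon receptor and P450 partners were tested. Arnt, the dimer partner of the receptor, fell with HFD in old mice (-0.50, SE 0.11, adjusted p = 0.0170), and no other gene of the list passed for diet or age alone. In old HFD against young ND mice, 5 of the 12 were lower, with Hnf4a, a hepatocyte transcription factor that is also in the hepatocyte marker list, at -0.73 (adjusted p = 0.00534), where 12.9% of all tested genes were called lower.

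Other pericentral genes did not follow Glul and Lect2 as a block. Of 26 tested, 0 rose and 4 fell with HFD in young mice, and 2 rose and 4 fell in old mice, with median log2 fold changes of 0.21 and 0.14. Of all tested genes 1.59% were called lower in young and 1.64% in old mice. Cyp3a11, a xenobiotic P450, fell by 2.62 (adjusted p = 2.66e-07) and Cyp2c29 fell by 1.2 (adjusted p = 0.00415) on the log2 scale in young mice, beside smaller falls of Gstm1, a glutathione transferase, and Cyp27a1, a bile acid P450. Cyp3a11, Gstm3, Cyp2c29 and Gstm1 were the 4 that fell in old mice. In old mice Rhbg, an ammonium transporter (2.30, adjusted p = 0.0309), and Slco1b2, an organic anion transporter (0.60, adjusted p = 0.0487), rose. On ND, age raised 2 of the 26, Slc13a3 (1.85, adjusted p = 0.0105), a dicarboxylate transporter, and Slc22a3 (1.15, adjusted p = 0.0236), an organic cation transporter, a share near the 7.26% of all tested genes called higher. Slc13a3 was at 9.65 to 76.6 CPM in old ND and 4.71 to 11.4 CPM in young ND mice, with overlap. Slc22a3 was also higher with age on HFD (1.19, adjusted p = 0.0420). Of 22 periportal genes, Cyp17a1 rose and Cdh1 fell with HFD in young mice and none passed in old mice, with medians of -0.01 and -0.08. The 9 genes, the other pericentral genes and the periportal genes were not tested against one another.

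**Figure D4:**
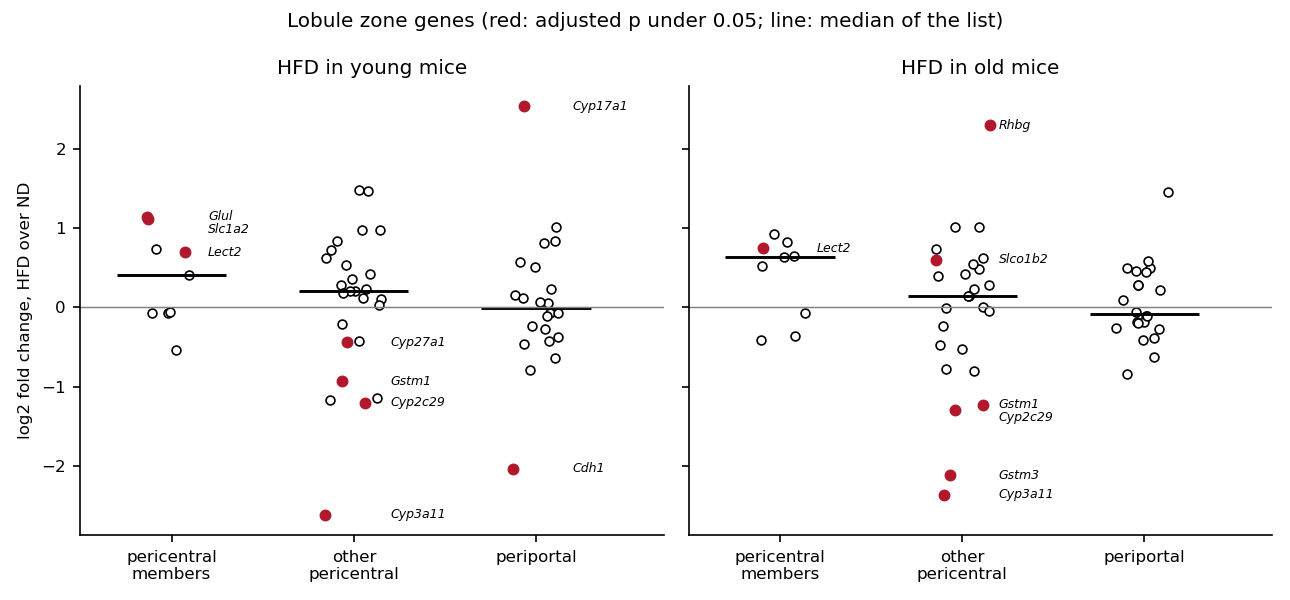
Log2 fold change with HFD (y axis) of the 9 pericentral genes described here, 26 other pericentral genes and 22 periportal genes in young and old mice, 1 point per gene, red where the adjusted p was under 0.05, with a line at each list's median. The medians are 0.40, 0.21 and -0.01 in young mice and 0.64, 0.14 and -0.08 in old mice, and the red points of the other pericentral genes lie below 0 except Rhbg and Slco1b2 in old mice.

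Variation among mice of the same group was examined by removing the mean of each group and batch from log2 CPM and correlating the 36 pairs of genes over the 24 mice. Cyp2e1 and Rgn varied together (Pearson r = 0.73, permutation p = 0.00124, adjusted p = 0.0446; Spearman rho = 0.78, permutation p = 0.00076, adjusted p = 0.0274). Without the 2 mice farthest from the median, r was 0.82, and it was 0.80 in batch 1 and 0.70 in batch 2. This was the only pair that passed by Pearson r, and Rgn with Lect2 passed by Spearman rho alone (rho = 0.66, permutation adjusted p = 0.0351; r = 0.53, adjusted p = 0.0724). No pair passed in 14 of 24 fits without 1 mouse, namely without young ND replicate 1 or 2, any 1 of the young HFD mice, old ND replicate 1, 2, 5 or 6, or old HFD replicate 3 or 5. Glul and Slc1a2 had the highest coefficient (r = 0.79, permutation p = 0.00641, adjusted p = 0.0673; rho = 0.58, adjusted p = 0.117), with 0.88 in batch 2 and 0.22 in batch 1, and 0.61 without the 2 farthest mice. Oat and Lect2 followed (r = 0.70, adjusted p = 0.0673; rho = 0.65, adjusted p = 0.0768; 0.72 without the 2 farthest mice), with 0.93 in batch 1 and 0.50 in batch 2. Glul was near 0 with Cyp2e1 (-0.04), Cyp1a2 (-0.05) and Rgn (-0.14). All genes of a mouse share its library and its mix of cells.

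**Figure D5:**
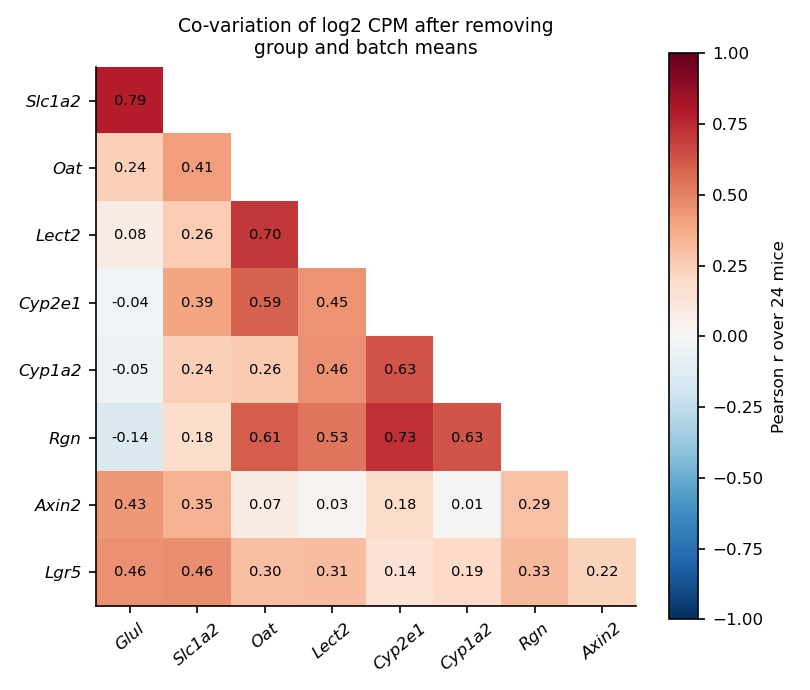
Pearson r over 24 mice of log2 CPM, after removal of group and batch means, for each pair of the 9 genes, with colour and printed value for r. The highest values are 0.79 for Glul with Slc1a2 and 0.73 for Cyp2e1 with Rgn, and the lowest is -0.14 for Glul with Rgn.

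Among 10458 genes with an average log2 CPM of at least 1, those most like each gene in these deviations were listed as a description, without a test. For Glul they were Slc13a3 (r = 0.85), Capn8 (0.81) and Slc1a2 (0.79), of which Slc13a3 was in the list of other pericentral genes. For Slc1a2 they were Glul (0.79), Slc16a10 (0.75) and Plpp3 (0.73). For Oat the nearest were Lhpp (0.85), also in the pericentral list, Decr1 (0.83) and Cd59b (0.82), and for Lect2 they were Tpm2 (0.86), Madd (0.85) and Gstk1 (0.83). Cyp2e1 was nearest to Eci2 (0.90), Cyp27a1 (0.88) and Epb41l4b (0.85), and Rgn to Faf1 (0.92), Cyp2c50 (0.92) and Bnip3l (0.90). Cyp1a2 was nearest to Susd4 (0.87), Dym (0.83) and Cyp2d9 (0.82). For the Wnt reporters the coefficients were 0.74 for Axin2 with Tle3, 0.73 with Notch1 and 0.72 with Ankrd13a, and 0.88 for Lgr5 with Clp1, 0.82 with Ddhd1 and 0.82 with Nae1.

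Counting limits apply to 3 of the 9 genes. In the annotation, exons of Glul overlap Teddm2 on the other strand and Mir8114 on the same strand, and exons of Slc1a2 and Axin2 overlap Gm13872 and Gm11670 on the other strand. Whether the counting used strand was not stated in the sources used here, so reads of these overlaps cannot be assigned with certainty.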

How the data were processed

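PolyA RNA-seq was made from hepatocytes of 24 mice in 2 labelled batches. The authors deposited raw gene counts (STAR 2.7.3a alignment to mm10, HTSeq 0.11.2) and FPKM values, described as batch-corrected. The deposited FPKM divided by gene span rather than exon length (median implied length over span 0.963), so levels between genes used CPM per kilobase of exon (GENCODE M21, GRCm38) in place of the planned FPKM, which served only in alternatives.

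Counts were tested with edgeR 4.0.16 (TMM, filterByExpr, quasi-likelihood, group plus batch, 24 mice), with Benjamini-Hochberg adjustment over 13583 genes at 0.05; standard errors were derived from F. Alternatives used DESeq2 1.42.0 and limma 3.58.1 on log2(FPKM + 1), and left out each of 24 mice. Correlations used 100000 permutations within group and batch. Scripts were tested on simulated data. Members and lists were chosen with earlier results of these data known. The text named all 9 members and, per comparison and list, at most the 2 highest and 2 lowest called genes; the Wnt pathway and P450 partner genes named for old HFD against young ND, and Gsk3b for HFD in young mice, Gstm1 and Cyp27a1, named to complete small counts, were chosen after their values were seen. Replicates were separate mice by their labels, and no 2 mice of a group agreed within sampling noise (lowest chi-square per degree of freedom 15.2 over 60 pairs).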

Additional observations from a re-analysis of the deposited data

Results flagged for a closer look

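In 4 of 36 sets of 6 mice (9 genes in 4 groups), 1 mouse lay farther from its group than Dixon's limit (gap over 0.625 of the range) on the log2 CPM scale, and chance alone gives about 1 set in 20. Cyp1a2 in old ND replicate 4 was low at 7.47 (177 CPM); this mouse also had the highest endothelial (809 CPM) and Kupffer cell and macrophage (1139 CPM) marker sums, and without it the age difference of Cyp1a2 on ND was -0.40 instead of -0.53. Slc1a2 in young ND replicate 3 was high at 6.43 (86.0 CPM), and without that mouse the age difference on ND was 0.83 with an edgeR adjusted p of 0.0651. Rgn in the same young ND replicate 3 was high at 10.66 (1623 CPM). Lect2 in old HFD replicate 2 was high at 8.02 (260 CPM), and without it the HFD effect in old mice was 0.57 with an edgeR adjusted p of 0.0364.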

How the results depend on the processing

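Of values called in the edgeR fit, 84 of 110 kept their call under other settings and 26 lost it, and none changed direction; the cause was not tested. The number of the 9 genes called was 3 for HFD in young mice, 1 for HFD in old mice, 1 for age on ND, 0 for age on HFD and 5 for old HFD against young ND. Without the count filter it was 5, 4, 3 and 1 for the first 4, beside 1473, 1108, 2053 and 1235 genes called over all genes. With the filter, edgeR called 259 genes higher and 216 lower for HFD in young mice, and 186 and 223 in old mice. It called 1155 genes for age on ND and 304 for age on HFD. Without a batch term the number of the 9 called was 1 for HFD in young mice and 0 for age on ND, beside 174 and 628 genes. Each batch alone held fewer mice than the full fit. In batch 2 alone the number was 0 for HFD in young mice, HFD in old mice, age on ND and old HFD against young ND. The genes called over all were 9, 16, 2 and 617. In batch 1 alone the number of the 9 called was 2, 1, 1, 0 and 5 in the 5 comparisons. Lect2 lost its call there with HFD in young (edgeR adjusted p = 0.143) and old mice (0.244), and Slc1a2 for age on ND (0.128). Glul passed there for HFD in old mice (0.0198) and age on ND (0.0189). DESeq2 called 4 of the 9 for HFD in old mice (Lect2, Glul, Oat and Cyp2e1), beside 1091 genes over all genes. Limma on log2(FPKM + 1) and log2(FPKM + 0.1) called 2 there, beside 419 and 451 genes. For age on ND these 2 fits called 0, beside 252 and 555 genes. Limma without a filter called 1, 0 and 0 for HFD in young mice, HFD in old mice and age on ND. The genes it called over all were 152, 172 and 39. The interaction of age and diet called 0 of the 9 genes in every fit, and over all genes 0 in edgeR, 7 in DESeq2, 587 without the count filter and 1 with the replicate block. Fitting only the compared groups called 0 of the 9 for HFD in old mice, beside 15 genes. Leaving out 1 mouse gave 0 to 4 for HFD in young mice, 0 to 2 for HFD in old mice, 0 to 1 for age on ND and 5 in every fit for old HFD against young ND.

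Pairs of genes that varied together numbered 2 by Spearman rho, 6 on log2(FPKM + 1), 0 without old HFD mice, 0 in each batch alone and 0 to 5 without 1 mouse (0 in 14 of 24 fits), beside 1 as reported.

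When the replicate number replaced batch as a block, Glul for HFD in young mice was 1.16 (adjusted p = 0.0671) and age on ND called 0 of the 9 genes; no other member call changed. Replicate numbers belong to different mice, and same-numbered mice deviated together with a mean r of 0.182 (-0.320 to 0.551), or -0.0505 after batch means were removed.

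Directions changed only for values that had not passed. In batch 1 alone, HFD in young mice gave 0.090 for Axin2 and 0.12 for Rgn, HFD in old mice 0.044 for Rgn, age on ND -0.067 for Lgr5, age on HFD 0.095 for Lect2, and the interaction -0.032 for Cyp1a2 and -0.079 for Rgn. In batch 2 alone, HFD in young mice gave 0.059 for Lgr5, age on HFD -0.38 for Glul, -0.24 for Oat, -0.27 for Slc1a2 and 0.25 for Axin2, old HFD against young ND 0.044 for Axin2, and the interaction -0.38 for Oat, 0.12 for Axin2 and -0.12 for Lect2. Without a batch term, HFD in old mice gave 0.041 for Rgn and the interaction 0.017 for Glul. The interaction of Rgn was -0.00327 in DESeq2, -0.00159 with RLE factors, -0.022 without a count filter, -0.063 in limma on log2(FPKM + 1) with and without a filter and -0.064 on log2(FPKM + 0.1), and that of Oat was -0.036 and -0.041 there. Lgr5 for HFD in young mice was 0.00107 in limma on log2(FPKM + 1), with and without a filter.

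Leaving out 1 mouse also changed the sign of small values: HFD in young mice ran from -0.28 to 0.056 for Axin2, -0.34 to 0.14 for Lgr5 and -0.22 to 0.054 for Rgn, HFD in old mice from -0.23 to 0.10 for Rgn, age on ND from -0.15 to 0.29 for Lgr5, age on HFD from -0.14 to 0.18 for Axin2 and -0.29 to 0.0076 for Lect2, and old HFD against young ND from -0.21 to 0.068 for Axin2. The interaction ran from -0.23 to 0.24 for Oat, -0.014 to 0.19 for Cyp2e1, -0.029 to 0.30 for Cyp1a2, -0.18 to 0.17 for Rgn and -0.13 to 0.15 for Lect2. The lowest counts per mouse were those of Axin2 and Lgr5, from 37 to 294.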
